A study of Mus musculus with 12 samples.

Results

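The orexin and melanin-concentrating hormone (MCH) systems were followed through 7 genes, chosen by symbol from the 32494 genes of the deposited table. They comprise 4 neuropeptide genes (Hcrt, Pmch, Gal and Nts) and 3 receptor genes (Hcrtr1, Hcrtr2 and Mchr1). Every member was found by its symbol, and each passed the minimum mean of 1 CPM, so 7 of 7 were tested. The libraries were made from messenger RNA of the hypothalamus, taken from male mice with floxed alleles of Smc3, the gene of a core cohesin subunit. All mice had received tamoxifen 5 weeks before the tissue was collected. Mice without the Camk2a-cre/ERT2 transgene are labelled WT (n = 7) and mice with it cKO (n = 5). The titles of all 12 samples, those of cKO mice included, also bear the word control, whose meaning the labels do not give. The transgene makes a tamoxifen-activated Cre recombinase from the Camk2a promoter, which is active mainly in excitatory neurons of the forebrain, so other hypothalamic cells keep their floxed alleles unless Cre reached them. The growth protocol gives mice of 8 weeks without saying at which step. The series asks what loss of Smc3 in adult neurons does to weight and metabolism.

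Orexin and MCH neurons are separate, neighbouring populations of the lateral hypothalamus, and few other cells of the brain make these peptides. Orexin neurons keep animals awake and drive food seeking, and their loss causes narcolepsy. MCH neurons are most active in sleep, and MCH raises food intake and saves energy. Galanin and neurotensin are made by neurons of the same area and of many further hypothalamic and brain regions.

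In the libraries labelled cKO, no member of the 7 differed from those labelled WT by limma at a Benjamini-Hochberg adjusted p-value of 0.05. Across all 15359 tested genes 14.1% did. The clearest feature of these genes was the spread between mice of the same group. Hcrt and Pmch spanned 213-fold and 134-fold over the WT mice, a width set by the very low library WT 11, and 6.63-fold and 9.61-fold without it. They moved together, whereas the receptor Mchr1 stayed between 12.3 and 15.7 CPM in the 12 libraries. CPM here is the number of reads of a gene scaled by the authors for library size, with a further normalization factor, since the deposited values sum to slightly different totals.

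Facts that bear on all genes are given here once. Depth was 17.1 to 24.0 M reads (megareads) in 11 libraries and 68.7 M in WT 1. Smc3 averaged 81.6 ± 3.14 CPM over the 7 WT libraries and 131 ± 10.3 CPM over the 5 labelled cKO (± SD here and below), which is 0.67 higher on the log2 scale with a limma adjusted p-value of 3.06e-05. The floxed gene thus went against the label, and each direction below refers to the libraries by their label. Of 10 hypothalamic markers, Otp (11.8 to 106 CPM), Sim1 (10.9 to 27.1 CPM), Nkx2-1 (6.49 to 33.0 CPM) and Pomc (3.02 to 153 CPM) were present in each library, and Agrp was at most 1.24 CPM in all. The others were nearly absent from some libraries. Nr5a1, of the ventromedial nucleus, was at 0 CPM in WT 4, 0.0930 in WT 5, 0.0413 in WT 11 and 0.0933 in cKO 12, and from 0.346 to 8.77 CPM elsewhere. Fezf1 was at 0.0493 CPM in WT 4, 0.0930 in WT 5 and 0.233 in cKO 12, Nkx2-4 at 0.0826 in WT 11, and Avp at 0.793 in cKO 12 and 0.855 in cKO 13. Oxt, the oxytocin gene of the paraventricular and supraoptic nuclei, was between 0.280 and 2.33 CPM in WT 4, WT 5, cKO 12 and cKO 13 and between 69.5 and 348 CPM in the other 8 libraries. The summed level of 4 mammillary and subthalamic markers (Foxb1, Lmx1a, Lmx1b and Barhl1) was 7.81 CPM in WT 11 and 6.97 CPM in cKO 8, against 19.1 to 82.0 CPM in the other 10. Each library was taken as 1 mouse, which the labels do not state, and p-values measure the spread between these samples.

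The 250 bases before the RefSeq starts of Hcrt and Pmch (build GRCm38.p6) are printed because these genes changed together from mouse to mouse. The Hcrt window is chr11:100762932-100763181 on the minus strand and the Pmch window chr10:88090822-88091071 on the plus strand. Both are read 5′ to 3′ toward the start of transcription. Capitals mark matches to TATAAA (1 form of the TATA box) and TGANTCA (a loose pattern that includes the AP-1 site).
Hcrt: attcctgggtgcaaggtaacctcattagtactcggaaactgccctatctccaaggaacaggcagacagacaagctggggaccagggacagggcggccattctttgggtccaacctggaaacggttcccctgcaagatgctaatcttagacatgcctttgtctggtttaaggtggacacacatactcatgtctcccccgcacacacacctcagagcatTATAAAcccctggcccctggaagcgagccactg
Pmch: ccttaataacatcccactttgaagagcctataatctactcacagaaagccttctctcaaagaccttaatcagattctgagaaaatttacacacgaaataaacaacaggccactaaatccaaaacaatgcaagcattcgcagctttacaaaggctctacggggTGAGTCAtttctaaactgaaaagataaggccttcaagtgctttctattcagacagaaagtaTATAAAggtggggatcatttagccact
Hcrt and Pmch each held 1 TATAAA, whose first base lay 33 bases before the start in Hcrt and 27 bases before it in Pmch. The other 5 members held 0 in their windows, taking for Hcrtr1 the most upstream of its 3 listed starts. On either strand TATAAA occurs in 12.4% of 32851 RefSeq windows of this length. TGANTCA occurs in 6.75% of windows and was found as TGAGTCA in Pmch, 88 bases before the start, and in Nts, 207 bases before it. TGACGTCA, the cAMP response element, occurs in 1.55% of windows and in 0 of the 7. GC content was 38.4% in the Pmch window and 53.6% in that of Hcrt, from a median of 52.4% over all windows, and 69.2% with 21 CG dinucleotides in that of Hcrtr1. A match describes letters in the window and does not show that a factor binds there.

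In GENCODE M21 (GRCm38) the peptide genes lie at chr11:100761069-100762931 (Hcrt, minus strand), chr10:88091072-88092375 (Pmch, plus), chr19:3409915-3414544 (Gal, minus) and chr10:102481756-102490486 (Nts, minus). The receptor genes lie at chr4:130130217-130139359 (Hcrtr1, minus), chr9:76225880-76323856 (Hcrtr2, minus) and chr15:81235499-81238964 (Mchr1, plus). The build behind the deposited table is not given in the sources used here, and genes were matched by symbol.

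Hcrt encodes prepro-orexin, which is cut into orexin A and orexin B. In the libraries labelled WT, Hcrt was at 28.9 CPM in mouse 1, 15.4 in mouse 4, 11.95 in mouse 5, 51.5 in mouse 6, 19.4 in mouse 7, 0.372 in mouse 11 and 79.2 in mouse 15. In those labelled cKO it was at 10.4 CPM in mouse 8, 67.7 in mouse 9, 30.1 in mouse 12, 42.8 in mouse 13 and 53.0 in mouse 14. The cKO range lay inside the WT range, and WT 11 stood far below every other library. Hcrt rested on 9 reads in WT 11, with an exact Poisson 95% interval of 0.170 to 0.706 CPM for counting error only. The next lowest library, cKO 8, was 27.9-fold higher.

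Pmch encodes the precursor of MCH. It was at 48.4 CPM in WT 1, 19.8 in WT 4, 14.4 in WT 5, 127 in WT 6, 62.9 in WT 7, 1.03 in WT 11 and 138 in WT 15. The libraries labelled cKO held 57.4 CPM in mouse 8, 97.3 in mouse 9, 42.4 in mouse 12, 101 in mouse 13 and 112 in mouse 14. WT 11 was again the lowest, with 25 reads and an interval of 0.668 to 1.52 CPM, and the next library, WT 5, was 13.9-fold higher. Beside these low values, WT 11 also had the low mammillary marker sum and the low Nr5a1 and Nkx2-4 given above, with Lmx1a at 0 CPM, while its Oxt level of 348 CPM was the highest of the 12. In cKO 8, whose mammillary sum was as low, Pmch was at 57.4 CPM and Hcrt at 10.4 CPM. The part of tissue sampling in these values was not tested. In bulk tissue, fewer cells of a type and less RNA per cell cannot be told apart.

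Gal encodes galanin, a peptide of many hypothalamic neurons that inhibits its targets. Among the 7 WT libraries it ran from 4.29 CPM (WT 4) through a median of 20.8 to 32.2 CPM (WT 11). In those labelled cKO it was at 31.7 CPM in mouse 8, 12.7 in mouse 9, 12.8 in mouse 12, 22.4 in mouse 13 and 13.8 in mouse 14. WT 11 and cKO 8, the libraries low in mammillary markers, were the highest of their groups for Gal. The gene was thus high in the same WT library in which Hcrt and Pmch were nearly absent.

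Nts encodes neurotensin, which lowers food intake and modulates dopamine neurons. In the WT libraries Nts ran from 5.97 CPM (WT 7) through a median of 10.6 to 21.8 CPM (WT 11). In those labelled cKO it was at 15.8 CPM in mouse 8, 9.26 in mouse 9, 12.6 in mouse 12, 13.2 in mouse 13 and 8.76 in mouse 14. As for Gal, WT 11 and cKO 8 were the highest of their groups, and the cKO range lay inside that of the WT libraries.

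The receptor genes were steadier. Hcrtr1 encodes the orexin receptor that prefers orexin A. It ran from 5.58 CPM (WT 7) through a median of 8.78 to 12.7 CPM (WT 5) in the WT libraries. In those labelled cKO it was at 9.11 CPM in mouse 8, 6.32 in mouse 9, 10.5 in mouse 12, 7.22 in mouse 13 and 5.74 in mouse 14. Hcrtr2 encodes the receptor that binds both orexins and that marks the histamine neurons of the tuberomammillary nucleus. It ran from 6.94 CPM (WT 11) through a median of 9.17 to 11.1 CPM (WT 15). In the libraries labelled cKO it was at 5.75 CPM in mouse 8, 6.81 in mouse 9, 12.04 in mouse 12, 8.36 in mouse 13 and 8.11 in mouse 14. For both orexin receptors the groups overlapped, and the highest cKO library was mouse 12.

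Mchr1 encodes the MCH receptor of rodents, which couples to inhibitory G proteins and is expressed widely in the brain. Its WT libraries ran from 12.3 CPM (WT 4) through a median of 14.5 to 15.7 CPM (WT 7). In those labelled cKO it was at 13.3 CPM in mouse 8, 14.4 in mouse 9, 12.6 in mouse 12, 15.4 in mouse 13 and 13.7 in mouse 14. WT 11, the library nearly without Pmch, held Mchr1 at 14.5 CPM, close to the WT median. The receptor was thus at its usual level where the ligand transcript was lowest.

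**Figure D1:**
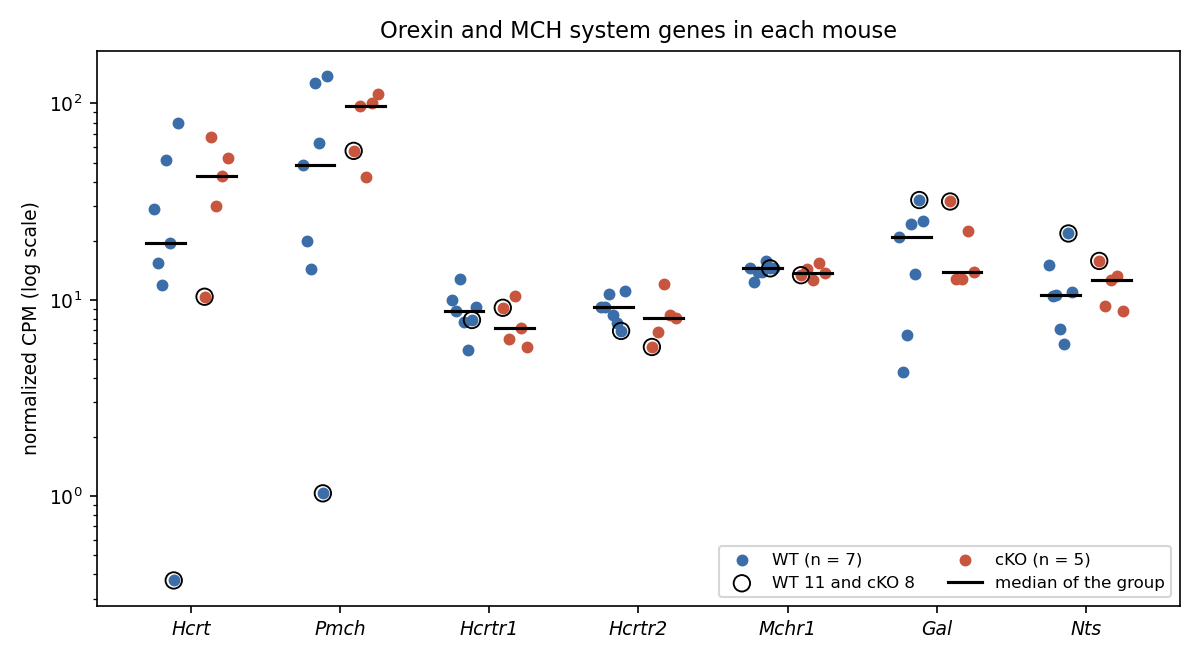
Normalized CPM (log axis) of the 7 genes in each mouse, WT in blue (n = 7) and cKO in red (n = 5), with the group median as a bar and WT 11 and cKO 8 circled. Hcrt and Pmch in WT 11 lie at 0.372 and 1.03 CPM, far under the other libraries, and Mchr1 stays between 12.3 and 15.7 CPM.

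The spread between mice differed widely within the set. The SD of log2(CPM + 1) within groups was 1.69 for Pmch and 1.60 for Hcrt, which ranked 7th and 10th among the 15359 tested genes, where the median gene had an SD of 0.12. Gal (0.85) ranked 52nd, Nts (0.49) 250th, Hcrtr1 (0.32) 883rd and Hcrtr2 (0.28) 1293rd. Mchr1 (0.10) ranked 9518th, below the median. WT 11 carried much of the spread of the first pair: without it the SD was 1.06 for Pmch and 1.01 for Hcrt, ranked 23rd and 27th, and that of Nts was 0.39, ranked 467th. On the recovered reads, the chi-square per degree of freedom over the WT libraries, which counting error alone would bring near 1, was 1.62 for Mchr1, 5.60 for Hcrtr2 and 12.4 for Hcrtr1. It was 58.5 for Nts, 128 for Gal, 573 for Hcrt and 1212 for Pmch. Without WT 11 these values were 36.2 for Nts, 113 for Gal, 468 for Hcrt and 1021 for Pmch. The chi-square also rises with the number of reads, so it does not compare spread between genes of unlike level. The WT SD in CPM was 91.8% of the mean for Hcrt and 92.8% for Pmch. By the SD of log2(CPM + 1) the peptide genes varied more than the receptor genes, as a description of these 7 and without a test.

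**Figure D2:**
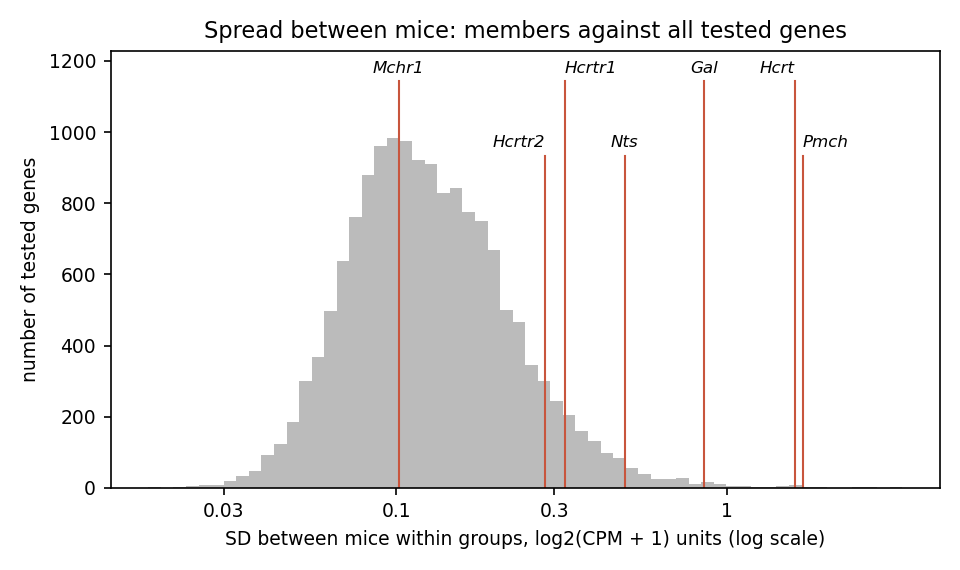
Number of tested genes (y axis) by the SD between mice within groups in log2(CPM + 1) units (x axis, log scale), with the 7 members as red lines. Pmch at 1.69 and Hcrt at 1.60 lie in the far right tail, and Mchr1 at 0.10 lies just left of the median of 0.12.

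Whether members rose and fell together across mice was asked for the 21 pairs. Within the 7 WT mice 1 pair, Hcrt and Pmch, passed an adjusted p-value of 0.05, and it was also the only pair with an unadjusted p-value under 0.05. Its Pearson r of log2(CPM + 1) was 0.975 (two-sided exact permutation p-value 7.94e-04, adjusted 0.0167 over 21 pairs). Spearman's rho was 0.964 (exact p-value 0.00278, adjusted 0.0583). Without WT 11 and WT 15, the mice farthest from the Hcrt median, r was 0.915. With each WT mouse left out in turn (n = 6), r was between 0.924 (without WT 11, exact adjusted p-value 0.224) and 0.990, and the pair missed the threshold in 5 of the 7 sets, the other 4 at an adjusted p-value of 0.0875. Over all 12 mice, after taking away the group means, r was 0.931 (permutation p-value 2.40e-04, adjusted 0.00504) and rho 0.846 (permutation p-value 0.00147, adjusted 0.0309). The r over these mice was 0.746 without WT 11 and WT 15.

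The ratio of Pmch to Hcrt CPM spanned a narrower range than either gene. It lay between 1.20 (WT 5) and 5.53 (cKO 8), a 4.60-fold range, whereas Hcrt itself spanned 213-fold and Pmch 134-fold. Most of that contrast rested on WT 11: without it Hcrt spanned 7.64-fold, Pmch 9.61-fold and the ratio 4.60-fold over the other 11 libraries. Pmch was above Hcrt in all 12 libraries. The ratio averaged 2.06 ± 0.780 in the WT libraries and 2.57 ± 1.71 in those labelled cKO, and its log2 did not differ by more than the spread between mice (difference 0.21, two-sided exact permutation p-value 0.610). This ratio was chosen after the values were seen. Its range and its cKO mean depended on cKO 8. The next highest ratio was 3.24 (WT 7), and the other libraries labelled cKO lay between 1.41 (cKO 12) and 2.36 (cKO 13). Pmch shares 435 exon bases with Parpbp on the opposite strand in GENCODE M21 (GRCm38). The strand setting of the counting is not given in the sources used here, so reads there cannot be assigned with certainty. Parpbp averaged 0.764 CPM in the WT libraries.

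**Figure D3:**
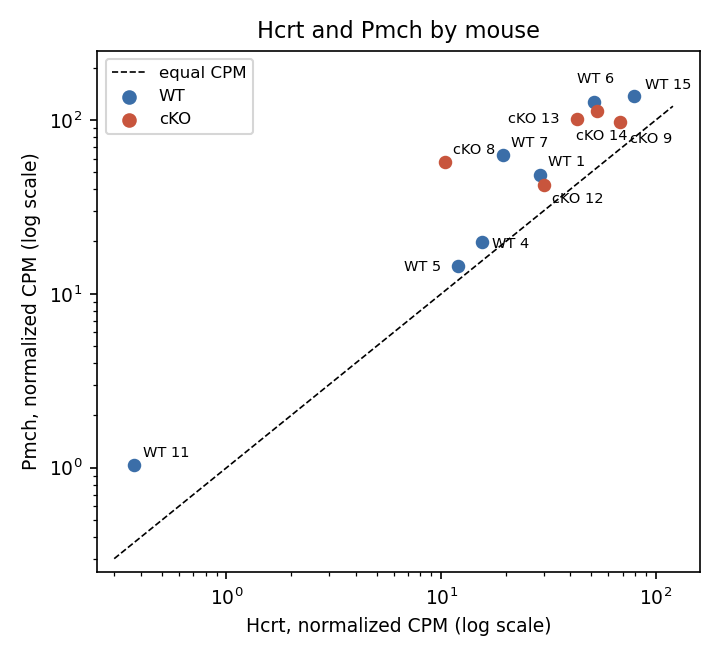
Pmch against Hcrt in normalized CPM (both axes log scale), 1 point per mouse, WT in blue and cKO in red, with a dashed line of equal CPM. All 12 points lie above the line, from WT 11 at 0.372 and 1.03 CPM to WT 15 at 79.2 and 138 CPM.

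The other pairs did not pass. In the 12 group-centred mice Nts ran against Hcrt (r = -0.670, permutation p-value 0.0407, adjusted 0.285) and against Pmch (r = -0.692, permutation p-value 0.0405, adjusted 0.285), and both failed the correction. Within the WT mice, r of Pmch with Mchr1 was 0.166 (exact permutation p-value 0.721). The r of Hcrt with Hcrtr1 was 0.0469 (exact p-value 0.906) and with Hcrtr2 0.626 (exact p-value 0.126). A ligand and its receptor were thus not seen to move together at this number of mice.

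Levels of different genes were compared per kilobase of the longest GENCODE M21 transcript, since CPM rises with length. By the WT median the order was Pmch (64.7 CPM per kb), Hcrt (33.2), Gal (26.4), Nts (8.50), Mchr1 (6.60), Hcrtr1 (3.60) and Hcrtr2 (2.44). With this length the ranges over WT mice did not overlap between Mchr1 and Hcrtr1, and overlapped for each other pair of neighbours. Pmch was above Hcrt in 6 of 7 WT mice and Hcrt above Gal in 6 of 7, while Gal was above Nts in 5 of 7, Nts above Mchr1 in 5 of 7, and Hcrtr1 above Hcrtr2 in 7 of 7. With the median transcript length Hcrtr2 (4.11 CPM per kb) came above Hcrtr1 (4.04), and the ranges of Mchr1 and Hcrtr1 overlapped. The order of the orexin receptors and the gap between Mchr1 and Hcrtr1 therefore rest on which transcript is taken as the length.

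The comparison of the groups asks whether the lateral hypothalamic systems differ in the libraries labelled cKO. Of the 7 members, 0 passed the limma threshold and 0 had an unadjusted p-value under 0.05, which 31.1% of all tested genes had. On recovered reads 0 members were called by edgeR's quasi-likelihood test, which called 13.7% of tested genes, and 0 by DESeq2, which called 17.9%. The group ranges overlapped for all 7, where 6.73% of tested genes had ranges that did not. The median log2 fold change of the members was 0.09, against 0.01 over all tested genes. An FDR under 0.05 was given to 4.94% of genes in the authors' deposited table and to 0 of the 7 members, whose smallest FDR was 0.823.

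Hcrt averaged 29.5 ± 27.1 CPM over the 7 WT libraries and 40.8 ± 21.9 CPM over the 5 labelled cKO, a ratio of means of 1.38. On the log2 scale the difference was 0.94 with an SE of 0.80 (limma, adjusted p-value 0.451). The 95% interval ran from -0.78 to 2.66, or from 0.584-fold to 6.34-fold on the log2(CPM + 1) scale. Without WT 11 the log2 fold change was 0.32 and the ratio of means 1.19. With marker scores as covariates it was -0.17 for thalamus (limma adjusted p-value 0.929), 1.09 for mammillary (0.238) and 1.48 for striatum (95% interval 0.19 to 2.77, adjusted p-value 0.1001). The sign was positive in 13 of 14 alternatives and in 12 of 12 fits that left out 1 mouse. Hcrt passed the threshold in none of them. These fits share most mice, and a change of filter or variance model leaves the estimate at 0.94. The count of signs is thus no separate support for a difference. The summed level of the 7 thalamus markers was 371 to 809 CPM in the WT libraries and 236 to 474 CPM in those labelled cKO (exact permutation p-value of the score 0.0442, adjusted 0.279 over 13 marker lists). Over these lists limma called 1 of 7 thalamus markers lower in the libraries labelled cKO, where 7.60% of all tested genes were called lower. It called 1 of 9 tested hypothalamic and 1 of 5 neuronal markers higher, where 6.54% of all tested genes were, and none in the other lists. The 7 pituitary markers summed to 3.63 to 6.56 CPM in the WT libraries and 4.43 to 15.1 CPM in those labelled cKO (score higher by 0.26, exact permutation p-value 0.0240, adjusted 0.279). Gh ran from 0.269 to 3.06 CPM in the WT libraries and from 0.140 (cKO 12) to 10.2 CPM (cKO 14) in those labelled cKO. Prl ran from 0 to 0.493 and from 0.0933 to 1.72 CPM, and Tshb from 1.39 to 2.12 and from 1.13 to 2.47 CPM. Fshb was at 0.237 CPM or less and Pou1f1 at 0.124 CPM or less in each library. The part of the thalamus in the result was not tested beyond that fit, and that of the pituitary was not tested.

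Pmch averaged 58.8 ± 54.6 CPM in the WT libraries against 82.1 ± 30.4 CPM in those labelled cKO, a ratio of means of 1.40. The log2 difference was 1.27 with an SE of 0.84 (limma, adjusted p-value 0.327) and a 95% interval from -0.54 to 3.09. Without WT 11 it was 0.61 and the ratio of means 1.20. It was 0.31 with the thalamus score (limma adjusted p-value 0.876), 1.37 with the mammillary (0.219) and 1.71 with the striatum score (95% interval 0.11 to 3.31, adjusted p-value 0.125). A change of Pmch by as much as 8.50-fold up or to 0.686-fold lies inside the interval, so these mice bound the orexin and MCH transcripts only loosely. The upper limits depended on WT 11. Without it the log2 intervals ran from -0.55 to 1.76 for Pmch and from -0.79 to 1.43 for Hcrt. The authors' deposited table gives log2 fold changes of 0.48 for Pmch and 0.47 for Hcrt.

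The remaining members had narrower intervals. Gal had a log2 difference of 0.20 (SE 0.43, limma adjusted p-value 0.792) and Nts of 0.09 (SE 0.25, limma adjusted p-value 0.832). Their 95% intervals ran from -0.72 to 1.11 and from -0.44 to 0.63. Hcrtr1 was at -0.16 (SE 0.17, limma adjusted p-value 0.549), with an interval from -0.52 to 0.20. Hcrtr2 was at -0.14 (SE 0.15, limma adjusted p-value 0.542), with an interval from -0.46 to 0.17. With the thalamus score as a covariate both orexin receptors lay lower in the libraries labelled cKO, Hcrtr1 at -0.45 (95% interval -0.80 to -0.088, limma adjusted p-value 0.118) and Hcrtr2 at -0.42 (-0.71 to -0.12, limma adjusted p-value 0.0827). Neither passed the threshold after adjustment, and both intervals lay below 0. With the striatum score Hcrtr1 was at -0.094 (limma adjusted p-value 0.721) and Hcrtr2 at -0.048 (0.803). With the mammillary score Hcrtr1 was at -0.15 (limma adjusted p-value 0.545) and Hcrtr2 at -0.11 (0.397). With array weights Hcrtr1 was at -0.36 (-0.67 to -0.062, limma adjusted p-value 0.0602), and without cKO 12, the highest cKO library, Hcrtr2 was at -0.28 (-0.55 to -0.0076, limma adjusted p-value 0.152). Without cKO 14 Hcrtr1 was at -0.073 (limma adjusted p-value 0.823), and without cKO 8 Hcrtr2 was at -0.041 (0.879). Mchr1 had the narrowest interval of the 7, at -0.03 (SE 0.06, limma adjusted p-value 0.804), with an interval from 0.892-fold to 1.08-fold. The two-sided exact permutation p-values over all 792 splits of the mice were 0.374 for Hcrt, 0.242 for Pmch, 0.404 for Hcrtr1, 0.391 for Hcrtr2, 0.646 for Mchr1, 0.705 for Gal and 0.749 for Nts.

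**Figure D4:**
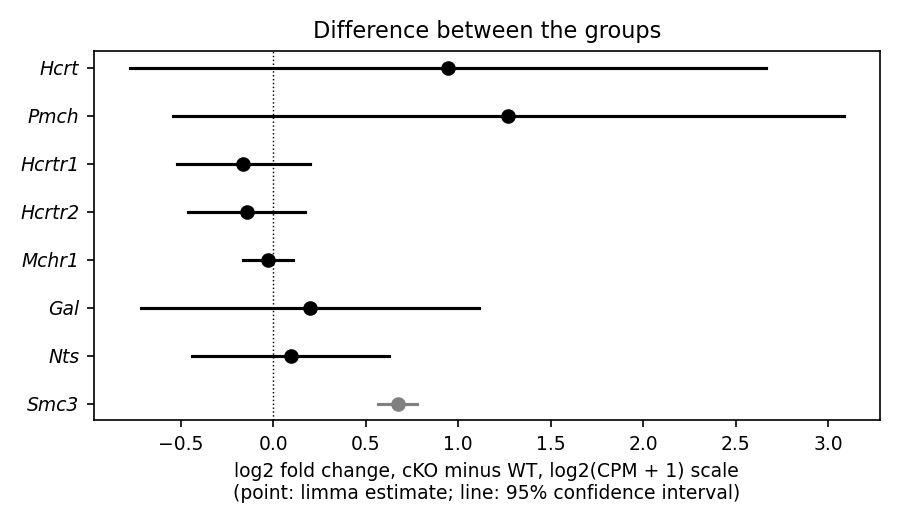
Limma log2 fold change (cKO minus WT, log2(CPM + 1) scale) of the 7 members and of Smc3 (grey), with 95% confidence intervals as lines. Each member's interval crosses 0, widely for Hcrt (-0.78 to 2.66) and Pmch (-0.54 to 3.09) and narrowly for Mchr1.

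Hcrtr2 followed markers of the posterior hypothalamus. Across the 12 mice, after taking away group means, its log2 level had a Pearson r of 0.855 with the mammillary and subthalamic marker score, the mean log2(CPM + 1) of those 4 genes (permutation p-value 9.50e-04, adjusted 0.0399). Spearman's rho was 0.895 (permutation p-value 5.50e-04, adjusted 0.0231). Without WT 11 and cKO 8, the mice farthest from the median score, r was 0.782. This was the only one of 42 relations between the 7 members and 6 regional scores to pass the adjustment, and the relations were chosen after the values were seen. Hcrt had an r of 0.601 with the same score (permutation p-value 0.0467, adjusted 0.245), which became -0.439 without the same 2 mice and so rested on them. Without these 2 mice r with that score was 0.748 for Hcrtr1 and 0.739 for Nts, against 0.323 and -0.306 over all 12. Hcrtr2 also had an r of 0.722 with the striatum score (permutation p-value 0.00407, adjusted 0.0855). Its r with the thalamus score was -0.721 (permutation p-value 0.0155, adjusted 0.204).

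**Figure D5:**
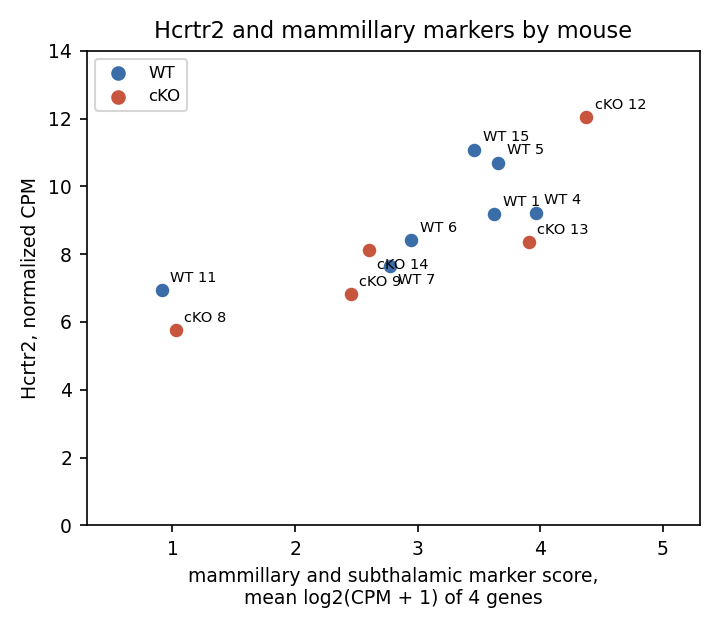
Hcrtr2 in normalized CPM (y axis) against the mammillary and subthalamic marker score, the mean log2(CPM + 1) of 4 genes (x axis), 1 point per mouse, WT in blue and cKO in red. cKO 8 and WT 11 lie lowest on the score with Hcrtr2 at 5.75 and 6.94 CPM, and cKO 12 lies highest on both, at 12.04 CPM.

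Genes most like each member were taken as the 3 tested genes with the highest r of group-centred log2(CPM + 1) over the 12 mice, as a description without a p-value. For Hcrt they were Vps11 (r = 0.936), Pmch (0.931) and Erfl (0.926), and for Pmch they were Rcn2 (0.945), Hcrt (0.931) and Erfl (0.927). Erfl, an ETS repressor-like gene, was at 0.248 CPM in WT 11 and up to 7.34 CPM in another WT library, whereas Vps11, a part of the machinery that tethers endosomes, stayed between 95.4 and 105 CPM in the WT libraries. For Hcrtr1 the genes were Cap1 (0.933), Gipr (0.893) and Smoc1 (0.890), and for Hcrtr2 they were Cacna2d1 (0.960), Wif1 (0.954) and Clstn2 (0.942). Cacna2d1, an auxiliary calcium channel subunit, is abundant, at 159 to 244 CPM in the WT libraries. For Mchr1 they were Akr1a1 (0.901), Phax (0.894) and Spata9 (0.888), for Gal Nelfcd (0.958), Fastkd1 (0.946) and Cep89 (0.943), and for Nts Moxd1 (0.937), Lamp5 (0.923) and Gm13889 (0.923). Moxd1 was at 8.01 CPM in WT 11, its highest WT value, as was Nts. WT 11 was also the lowest WT library for Vps11, Erfl, Rcn2, Cacna2d1, Wif1 and Clstn2. It was the highest for Lamp5, Gm13889, Nelfcd and Cep89. These r values were picked as the highest over 15359 tested genes and may rest on WT 11. The r without it was not computed.

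Partner genes were described through 6 lists of 51 genes, 47 of which were tested. Limma called 7 of the 47 (14.9%), close to the 14.1% of all tested genes. Of these, 3 rose and 4 fell, where 6.54% and 7.60% of all tested genes did, and the median log2 fold change was -0.03. The receptors of galanin and neurotensin and the related peptides held no call among 6 tested genes (0 with an unadjusted p-value under 0.05, and Galr3, Galp and Qrfp under the CPM minimum). Sort1, a sorting receptor that also binds neurotensin, was at 285 ± 33.5 CPM in the WT libraries and 271 ± 32.0 CPM in those labelled cKO. Ntsr2, a neurotensin receptor of astrocytes, was at 160 ± 24.3 and 163 ± 18.8 CPM.

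Among genes known in orexin or MCH neurons, 1 of 7 tested genes fell. Nptx2, a synaptic pentraxin enriched in orexin neurons and made by many others, went from 38.1 ± 8.26 to 25.8 ± 5.24 CPM (-0.54 on the log2 scale, SE 0.15, limma adjusted p-value 0.0344). Slc17a6, the vesicular glutamate transporter of these neurons and of the thalamus, was at 438 ± 59.6 and 426 ± 85.3 CPM, and Cartpt at 52.9 ± 22.3 and 44.1 ± 9.58 CPM. Of 11 genes of peptide processing and dense-core granules 1 rose, the secretogranin Scg3, from 239 ± 13.7 to 268 ± 7.70 CPM (log2 difference 0.17, SE 0.04, limma adjusted p-value 0.0223). The carboxypeptidase gene Cpe was at 2951 ± 255 and 3119 ± 245 CPM, and Pcsk1n at 1099 ± 93.2 and 1130 ± 62.3 CPM. Both code for proteins of the machinery that matures such peptides, and both were abundant in each group.

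Of 13 genes that carry signals from orexin, MCH and galanin receptors, 1 rose and 1 fell. Gnaq, the G protein subunit through which orexin receptors act, rose from 270 ± 8.11 to 295 ± 6.68 CPM (log2 difference 0.12, SE 0.03, limma adjusted p-value 0.0241). Itpr1, a calcium release channel of the endoplasmic reticulum, fell from 227 ± 41.7 to 138 ± 34.4 CPM (log2 difference -0.73, SE 0.15, limma adjusted p-value 0.00882). Gnao1 was at 637 ± 25.8 and 634 ± 35.9 CPM and Gnai2 at 281 ± 13.2 and 291 ± 28.2 CPM. Of 4 genes of the histamine system, a main target of orexin, Hnmt, which breaks histamine down, rose from 22.5 ± 2.80 to 27.5 ± 2.46 CPM (log2 difference 0.28, SE 0.08, limma adjusted p-value 0.0367). Hrh3 was at 128 ± 23.0 and 98.7 ± 15.6 CPM (limma adjusted p-value 0.0614), and Hrh1 at 26.5 ± 2.91 and 28.7 ± 2.94 CPM.

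Of 6 other hypothalamic peptide genes 2 fell. Tac1, the precursor of substance P, went from 27.7 ± 4.89 to 17.7 ± 4.00 CPM (log2 difference -0.63, SE 0.14, limma adjusted p-value 0.0146). Penk, the enkephalin precursor, went from 57.5 ± 8.95 to 41.4 ± 3.66 CPM (log2 difference -0.45, SE 0.10, limma adjusted p-value 0.0143). Sst, somatostatin, was at 69.5 ± 19.6 and 46.7 ± 7.96 CPM (limma adjusted p-value 0.0602). It was lower in the libraries labelled cKO past the threshold in 5 of 14 alternatives, edgeR (adjusted p-value 0.0489) and DESeq2 (0.0112) among them, in 2 of 12 fits that left out 1 mouse, and in the authors' deposited table (FDR 0.0294). Hrh3 passed in 3 of 14 alternatives and 1 of 12 such fits, with an FDR of 0.0527 in the authors' deposited table. With the thalamus score as a covariate Tac1 was past the threshold (-0.82, limma adjusted p-value 0.0167) and the other 6 called partner genes were not. Their log2 differences in that fit were -0.46 for Penk (limma adjusted p-value 0.0530), -0.53 for Itpr1 (0.0668), 0.11 for Gnaq (0.119), 0.26 for Hnmt (0.143), 0.12 for Scg3 (0.146) and -0.24 for Nptx2 (0.293). With 1 mouse left out, the calls of Nptx2 and Hnmt were each lost in 8 of 12 fits (limma adjusted p-values up to 0.0709 and 0.0872), those of Gnaq in 3 (up to 0.0532) and that of Scg3 in 1 (0.0510, without cKO 8). Itpr1, Tac1 and Penk kept theirs in 12 of 12. In the authors' deposited table Gnaq (FDR 0.119) and Scg3 (FDR 0.0518) were not under 0.05, and the other 5 were, with FDR from 2.17e-04 (Itpr1) to 0.0471 (Hnmt).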

How the data were processed

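Hypothalamic RNA of 12 mice was sequenced from NEBNext libraries, per the labels' protocols. STAR 2.7.9a, FastQC 0.11.9, SAMtools and Subread (featureCounts) are named in the submitters' processing notes. Genome build, annotation and strand setting are not given in the sources used here. The authors deposited normalized CPM per gene, as well as their own test results, with log2 fold changes, p-values and FDR. All columns were matched to samples by name. Members and lists were chosen with earlier results of these data known. For 100% of values (tolerance 0.01), the deposited CPM were whole multiples of 1 step per library, which gave read counts. On these, edgeR 4.0.16 called 2098 genes and DESeq2 1.42.0 called 2747.

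The main test was limma 3.58.1 (R 4.3.3) with a mean-variance trend and no covariates, on log2(CPM + 1) of the 15359 genes that averaged 1 CPM or more. P-values were adjusted by Benjamini-Hochberg over those genes. Fold changes on this scale understate changes of low genes. The fit was tested on simulated data, and the outcome of that test is not given here. A level of 3 reads was 0.0436 to 0.178 CPM. Named partner genes were those past the threshold and the 2 most abundant of each list, with the 3 genes most like each member and Smc3. Marker scores are means of log2(CPM + 1), and 1 gene of the mammillary list is not reported here and was left out of its score. Alternatives were another pseudocount, filter, scaling, variance model, weighting or test, thinned WT 1, marker covariates and leaving out each mouse. The mammillary covariate and leaving out WT 11 (for spreads) or WT 11 with cKO 8 were chosen after seeing the data.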

Additional observations from a re-analysis of the deposited data

Results flagged for a closer look

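The gap from the highest or lowest library to its nearest neighbour, relative to the group's range, passed Dixon's 95% limit in 3 of 30 sets of group values. Chance alone would give about 1.5. WT 1 had 68.7 M reads, and the next WT library 24.0 M. Pmch over Hcrt was 5.53 in cKO 8, against 2.36 in the next library labelled cKO. The mammillary and subthalamic marker score was 0.911 in WT 11, and the next WT library had 2.77.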

How the results depend on the processing

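Members called numbered 0 in the 14 alternatives and in the 12 fits that leave out 1 mouse. Scaling moved the median of all genes by at most 0.014 (log2). Over all tested genes the calls went from 2172 to 5126 with array weights, 1090 without WT 11 and cKO 8, 977 with the thalamus score, and 1161 (without WT 1) to 2309 (without WT 5) with 1 mouse left out. Median centring gave 1377 higher and 1054 lower, against 1004 and 1168. The 7 partner calls became 11 with DESeq2 and with array weights, 3 without WT 11 and cKO 8, 12 with the mammillary, 13 with the striatum and 2 with the thalamus score, and 4 (without WT 1 or cKO 8) to 9 with 1 mouse left out. The causes were not tested.

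Directions reversed as follows, on the log2 scale: with the thalamus score Hcrt (-0.17), Mchr1 (0.028), Gnai2 (-0.0066) and Gnao1 (0.027), with array weights Gal (-0.29), Nts (-0.32) and Gnao1 (0.0032), with the striatum score Cartpt (0.080), without WT 11 and cKO 8 Slc17a6 (0.075) and Gnai2 (-0.00018), with quantile normalization Pcsk1n (-0.011), and with median centring Gnao1 (0.0068). With 1 mouse left out, Hcrt ran from 0.32 to 1.36 and Pmch from 0.61 to 1.62 (both lowest without WT 11), Hcrtr1 from -0.27 (without cKO 12) to -0.073 (without cKO 14), Hcrtr2 from -0.28 (without cKO 12) to -0.041 (without cKO 8), Mchr1 from -0.063 to 0.0039 (without cKO 12), Gal from -0.070 (without WT 4) to 0.37, Nts from -0.033 (without WT 7) to 0.25, Ntsr2 from -0.021 to 0.091, Slc17a6 from -0.13 to 0.057 and Gnao1 from -0.031 to 0.026. None of these passed the threshold. Of 21 pairs, 0 to 1 passed with 1 WT mouse left out, and r of Hcrt and Pmch, past the threshold in 2 of those 7 sets, was 0.924 (without WT 11) to 0.990. Hcrtr2 per kilobase became 4.11 with the median transcript length. No paired analysis was possible because the WT and cKO titles share no number. Reads of Hcrt and Pmch in WT 11 (9 and 25) limit their precision there to the intervals given.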
